A study of Mus musculus with 7 samples.

Results

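The chemokine gene Cxcl12 and the genes of its receptors, Cxcr4 and Cxcr7, were followed in lymphatic endothelial cells (LECs) of the mouse ear. Cxcr7 is the older symbol of Ackr3 and is the name used in the count table. These 3 genes were chosen by name, with no measured value in the rule but with earlier results of these data known. All 3 were found among 26583 genes. The cells came from ear pinna that was either naive skin (3 libraries) or BPC melanoma (4 libraries), and RNA was sequenced from each. Every library came from mice with the pten l/l alleles. Naive replicates 1 and 3 carried 1 BrafCA allele and no Cre. Naive replicate 2 combined that genotype with mice that had Cre but Braf+/+. The 4 tumour libraries came from mice that had BrafCA/+, pten l/l and Cre together. Naive replicate 1 mixed both sexes, naive replicate 2 and tumour replicates 3 and 4 were female, and naive replicate 3 and tumour replicates 1 and 2 were male. The sources used here do not give the promoter that drives Cre, the ages, the sort or the number of mice behind each library. The p-values therefore measure the spread between these libraries, which may be technical in part.

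CXCL12 is a secreted chemokine that binds to heparan sulfate on cell surfaces and in matrix and draws in cells that carry CXCR4, a receptor that signals through the Gi class of G proteins. ACKR3, the product of Cxcr7, binds the same ligand but does not signal through G proteins in the usual way. It recruits arrestins and carries CXCL12 into the cell for degradation, so that it lowers and shapes the amount of ligand outside. In mice, ACKR3 on lymphatic endothelium is also known for clearing adrenomedullin, a peptide that drives the growth of lymphatic vessels.

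The 3 genes lie on chromosomes 1 and 6 of the mouse genome (GRCm38, the same assembly as mm10). Cxcl12 (ENSMUSG00000061353.11) is at chr6:117168535-117181367 on the plus strand, with 8176 bases of exon over its annotated transcripts. Cxcr4 (ENSMUSG00000045382.6) is at chr1:128588199-128592293 on the minus strand, with 1808 bases of exon. Cxcr7 (ENSMUSG00000044337.5) is at chr1:90203980-90216751 on the plus strand, with 3348 bases of exon. No other annotated gene overlapped any of them, so that counts without strand were not shared with a neighbour in that annotation. The windows from 250 bases before to 50 bases after the RefSeq start of each gene (GRCm38.p6) are shown as the annotated start regions of the genes whose counts follow, and the counts do not tell which start was used. They lie at chr6:117168285-117168584 on the plus strand for Cxcl12, chr1:128592250-128592549 on the minus strand for Cxcr4 and chr1:90203730-90204029 on the plus strand for Cxcr7. All 3 genes were matched to RefSeq. Capitals mark matches to 3 short motifs, the TATA box (TATAAA, gene strand), the GC box (GGGCGG, read as CCGCCC on the other strand) and a hypoxia core (GCGTG), the last 2 on both strands.
Cxcl12: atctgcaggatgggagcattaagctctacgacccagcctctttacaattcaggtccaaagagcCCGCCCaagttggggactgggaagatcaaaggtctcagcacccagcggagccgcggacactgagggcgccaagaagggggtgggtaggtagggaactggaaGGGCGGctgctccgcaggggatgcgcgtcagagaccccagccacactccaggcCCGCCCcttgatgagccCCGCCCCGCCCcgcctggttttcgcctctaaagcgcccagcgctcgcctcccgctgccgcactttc
Cxcr4: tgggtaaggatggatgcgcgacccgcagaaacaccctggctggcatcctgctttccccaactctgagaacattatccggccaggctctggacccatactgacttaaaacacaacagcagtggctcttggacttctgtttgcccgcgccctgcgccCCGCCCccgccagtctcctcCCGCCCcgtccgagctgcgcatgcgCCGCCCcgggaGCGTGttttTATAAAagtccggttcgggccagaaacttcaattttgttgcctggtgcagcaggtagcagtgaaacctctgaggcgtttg
Cxcr7: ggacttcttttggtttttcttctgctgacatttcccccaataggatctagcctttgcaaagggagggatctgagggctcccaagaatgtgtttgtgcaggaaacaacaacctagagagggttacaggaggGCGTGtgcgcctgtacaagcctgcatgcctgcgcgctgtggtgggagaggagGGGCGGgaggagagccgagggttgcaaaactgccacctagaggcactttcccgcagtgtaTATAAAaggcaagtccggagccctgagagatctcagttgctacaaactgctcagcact
The windows differed in base composition and in the motifs they held. Their GC content was 64.7% for Cxcl12, 59.3% for Cxcr4 and 54.0% for Cxcr7, against a median of 52.7% over all promoter windows. The Cxcl12 window held 5 matches to the GC box and none to TATAAA, and its GC boxes at 16 and 11 bases before the start overlap. The Cxcr4 window held TATAAA at 30 bases before the start, 3 GC boxes and 1 match to GCGTG. The Cxcr7 window held TATAAA at 8 bases before the start, 1 GC box and 1 match to GCGTG. Of 32851 promoter windows of this length, 8.32% held TATAAA, 35.7% the GC box and 32.4% GCGTG. A further hypoxia core, ACGTG, was in 19.6% of them and in none of the 3 shown. These matches describe letters only.

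Each naive library held 59735153 to 63032175 counts, and each tumour library 52940832 to 62947508. At these depths 3 counts, taken as the floor of detection, correspond to 0.0479 to 0.0521 CPM (counts scaled to library size, here with TMM factors), a limit that covers counting error only. All 15 markers of lymphatic endothelium were detected in each of the 7 libraries, Prox1, Lyve1, Pecam1 and Pdpn among them. They summed to 14000 to 17100 CPM in the naive and 12800 to 16400 CPM in the tumour libraries. None of the 15 passed edgeR's quasi-likelihood test at an adjusted p under 0.05, while 3 had an unadjusted p under 0.05 and DESeq2 called 2, beside 16.9% and 10.9% of all genes tested. Markers of other cells were present as well. The 14 fibroblast markers summed to 651 to 1240 CPM in naive and 1820 to 18800 CPM in tumour libraries, and the 10 melanocyte markers to 1.67 to 8.39 and 20.6 to 229 CPM. Tumour replicate 4 had the highest sum of the fibroblast, melanocyte, myeloid, lymphocyte, mural and blood endothelial lists.

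Cxcl12 was the member with the clearest separation of the groups. It had 1375, 3203 and 1837 counts in naive replicates 1 to 3 and 4785, 5921, 13678 and 8878 counts in tumour replicates 1 to 4. Scaled to library size these were 23.6, 55.6 and 31.8 CPM against 79.2, 97.1, 218 and 148 CPM. The groups did not overlap, and the lowest tumour library stood 1.42-fold above the highest naive one. The spread within each group was wide all the same, with the highest library 2.35 times the lowest in naive skin and 2.76 times in tumours. Of 13453 genes tested, 9.57% had no overlap with the tumour libraries higher, so separation of this kind was common in these data.

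**Figure D1:**
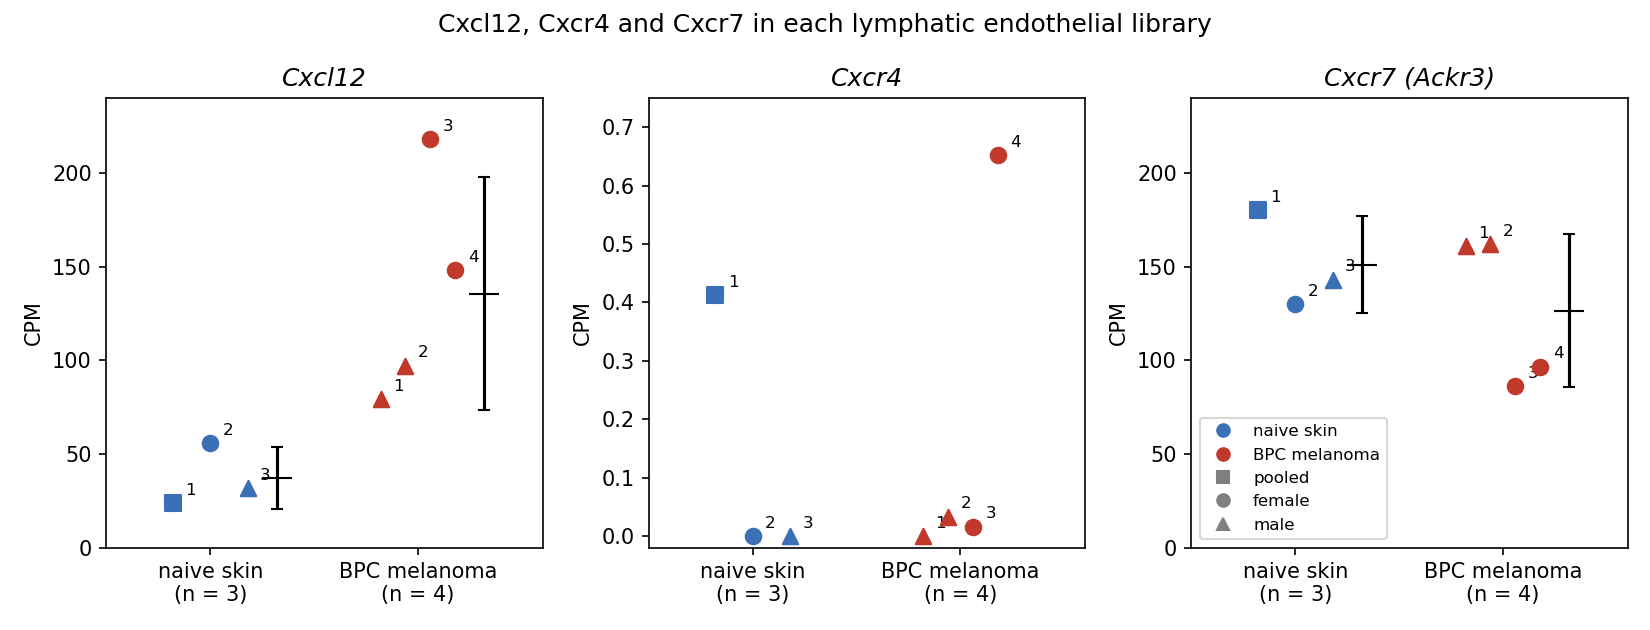
Level of Cxcl12, Cxcr4 and Cxcr7 in each of the 7 libraries (CPM, linear axes that differ between panels), with replicate numbers beside the points, shapes for sex and, for Cxcl12 and Cxcr7, bars for the mean and SD. The 4 tumour points of Cxcl12 lie between 79.2 and 218 CPM, above all 3 naive points, whereas those of Cxcr7 overlap the naive ones and Cxcr4 is near 0 in 5 of 7 libraries.

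The mean level of Cxcl12 was 37.0 ± 16.6 CPM (SD, n = 3) in naive and 136 ± 62.4 CPM (SD, n = 4) in tumour LECs. The fitted log2 fold change was 1.88 with an SE of 0.42, and its 95% interval ran from 0.92 to 2.83, which is 1.89- to 7.12-fold. The unadjusted p was 0.00173 in edgeR's quasi-likelihood test, the 335th smallest of 13453. After Benjamini-Hochberg adjustment it was 0.0693, so Cxcl12 did not pass the threshold of 0.05. Of the 2 members that could be tested, 0 passed by edgeR against a background of 1.70% of all genes, and 1 (Cxcl12) had an unadjusted p under 0.05, against a background of 16.9% in either direction and 9.10% higher in tumours. DESeq2, which estimates the spread differently, called Cxcl12 with the same log2 fold change of 1.88 (adjusted p = 0.000109), as it did 10.9% of the 13885 genes it tested.

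The estimate for Cxcl12 kept its direction in 18 other settings, with log2 fold changes of 1.55 to 2.78 and unadjusted p-values that were all under 0.05. Adjusted p-values ran from 0.000109 to 0.434 and passed the threshold in 3 of the 18, with DESeq2, with a filter of 5 CPM (0.0359) and with limma on the deposited log2 values (0.0408). Leaving out 1 library at a time gave 1.55 (without tumour replicate 3) to 2.29 (without naive replicate 2), with adjusted p-values of 0.06 to 0.214. The estimate moved furthest with the sequencing lane as a term, to 2.78 (adjusted p = 0.434). The lane was read from a tag in the sample descriptions. Only lane 8 was shared across groups, and it held the third naive (male) and the third tumour (female) library. There Cxcl12 was at 31.8 and 218 CPM, a 6.88-fold difference between 2 libraries that also differ in sex. The estimate with lane as a term rests on this pair. The remaining naive libraries were on lane 7 and the remaining tumour libraries on lane 6, so lane and group cannot be told apart among them.

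**Figure D2:**
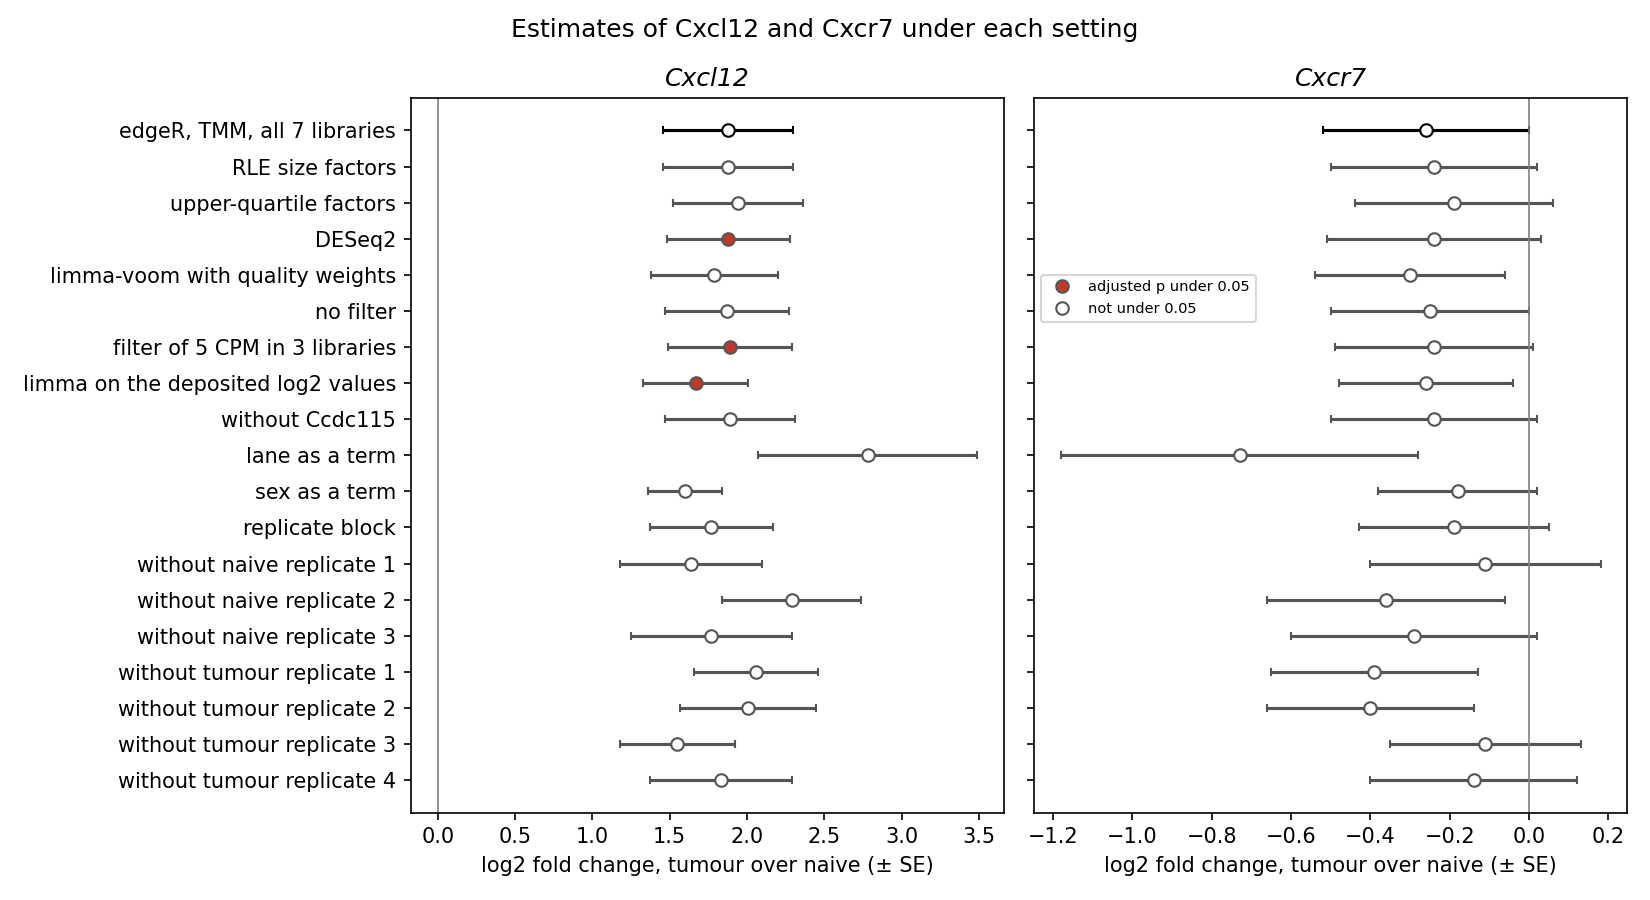
Log2 fold change of Cxcl12 (left) and Cxcr7 (right), tumour over naive, with its SE, in the main edgeR test and 18 other settings. Filled points have an adjusted p under 0.05; Cxcl12 stays between 1.55 and 2.78 and Cxcr7 between -0.73 and -0.11.

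Cxcl12 was also compared within each sex, leaving out the pooled naive library. In females it was at 55.6 CPM in the naive library and at a mean of 183 CPM in the 2 tumour libraries, a 3.30-fold difference. In males the same values were 31.8 and 88.1 CPM, a 2.78-fold difference. Females were above males in both groups, and with group as a term the female minus male difference was 0.97 on the log2 scale (SE 0.21, unadjusted p 0.00265, adjusted p = 0.776 by edgeR). Only 3 genes, 0.0211% of the 14229 tested, passed that comparison. The tumour effect did not differ detectably between the sexes (female minus male 0.25, SE 0.47, adjusted p = 1, with 0 genes called and unadjusted p 0.615). The tests of the sex difference itself and of its interaction with group were added after seeing the data.

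Fibroblasts are a known source of CXCL12 in skin, and RNA of genes listed as their markers was read in all libraries. In bulk RNA a higher share of another cell type and a higher level per LEC cannot be told apart. The fibroblast markers summed to 651, 666 and 1240 CPM in naive replicates 1 to 3 and to 2900, 1820, 6370 and 18800 CPM in tumour replicates 1 to 4. All 4 tumour libraries were above the naive ones for this sum as they were for Cxcl12. Within the tumours, replicates 3 and 4 had the 2 highest levels of both Cxcl12 and the fibroblast sum and replicates 1 and 2 the 2 lowest, with the order inside each pair reversed. Pdgfra, a receptor that defines fibroblasts, had 2, 4 and 5 counts in naive libraries and 587, 480, 1742 and 3518 counts in tumour libraries, and it rose by 8.64 on the log2 scale (SE 1.04, adjusted p = 0.0112). Of the 14 fibroblast markers tested, 2 passed as higher by edgeR (Pdgfra and Mfap5, a microfibril protein) against 0.899% of all genes. At an unadjusted p under 0.05, 10 were higher (9.10% of all genes), and DESeq2 called 9 higher (6.83% of the genes it tested). The median log2 fold change of the 14 was 3.03. Clec3b went the other way, at -0.27 (adjusted p = 0.942, edgeR). The 10 mural cell markers summed to 30.0 to 38.9 CPM in naive and 39.6 to 131 CPM in tumour libraries. Of the 5 tested, 0 passed by edgeR and 2 had an unadjusted p under 0.05 (16.9% of all genes), with a median log2 fold change of 0.10. DESeq2 called 4 of the 10 higher (6.83% of the genes it tested). The defining markers Rgs5 and Acta2 had no count in naive libraries and had 0, 0, 0 and 25 counts and 0, 1, 404 and 1253 counts in tumour replicates 1 to 4. Blood endothelial markers summed to 733 to 1020 and 1390 to 1590 CPM. Most of the naive sum came from Plvap, Aqp1 and Emcn, with naive means of 377, 259 and 199 CPM. Flt1 had 0, 19 and 0 counts in naive and 253, 2, 45 and 931 counts in tumour libraries, and Darc had no naive count. By edgeR 1 of 11 (Aqp1, a water channel) was higher, against 0.899% of all genes. DESeq2 called 5 higher and 1 lower (6.83% and 4.08% of the genes it tested). Emcn, a sialomucin of the same list, was lower, at a mean of 199 CPM in naive and 98.8 CPM in tumour libraries (adjusted p = 0.0673, edgeR). Its groups did not overlap, as for 8.46% of all genes in this direction. The part of these cells in the Cxcl12 difference was not tested.

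**Figure D3:**
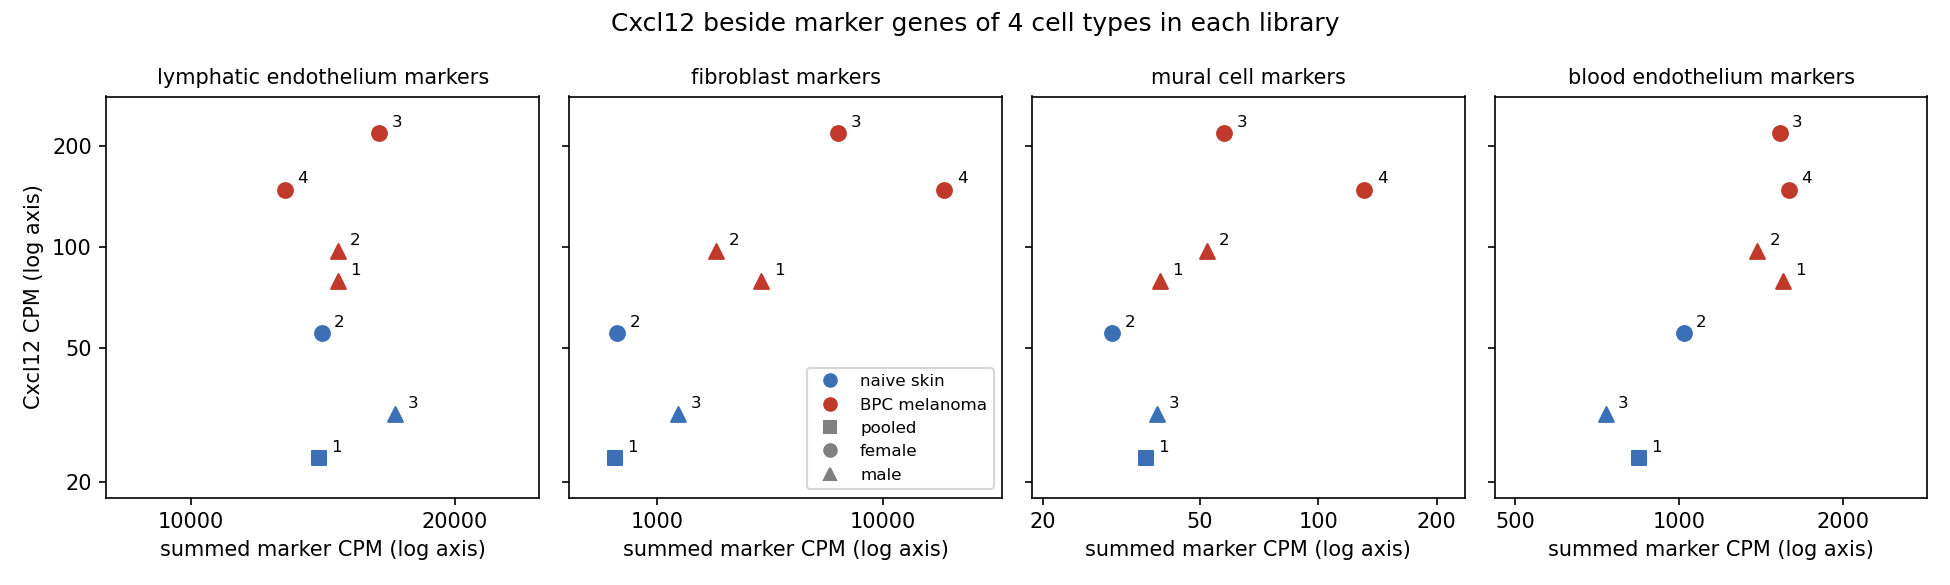
Cxcl12 (vertical) against the summed level of markers of lymphatic endothelium, fibroblasts, mural cells and blood endothelium (horizontal, 1 panel each), in CPM on logarithmic axes, with 1 point per library, replicate numbers beside it and shapes for sex. Tumour libraries lie above naive ones on Cxcl12 and on the fibroblast, mural and blood endothelial sums, while the lymphatic sum overlaps between the groups at 12800 to 17100 CPM.

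Cxcr7, the gene of the scavenging receptor, was read at high levels in both naive and tumour LECs. It had 10500, 7485 and 8259 counts in the naive libraries and 9700, 9879, 5407 and 5781 counts in the tumour libraries. In CPM these were 180, 130 and 143 against 161, 162, 86.3 and 96.6. The groups overlapped, with tumour replicates 1 and 2 inside the naive range and tumour replicates 3 and 4 below it. The means were 151 ± 26.2 (SD, n = 3) and 126 ± 40.5 CPM (SD, n = 4). The log2 fold change was -0.26 (SE 0.26, 95% interval -0.84 to 0.33) and the adjusted p by edgeR's quasi-likelihood test was 0.704. The interval corresponds to 0.558- to 1.25-fold, and a difference within it could not be told apart from none at this spread. None of the 18 other settings passed the threshold, with log2 fold changes of -0.73 to -0.11 and unadjusted p-values of 0.152 to 0.718.

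The 2 lower tumour libraries of Cxcr7, replicates 3 and 4, were the female ones and also those with the most fibroblast marker RNA (6370 and 18800 CPM against 2900 and 1820 CPM), and sex and that RNA cannot be told apart among 4 tumours. The male tumour libraries had a mean of 161 CPM against 143 CPM in the male naive library, and the female ones 91.5 CPM against 130 CPM, which is 1.13-fold and 0.703-fold. On lane 8 the pair of libraries had 143 CPM (naive, male) and 86.3 CPM (tumour, female). The female tumour libraries were thus below their naive library and the male ones above it. With group as a term, the female minus male difference was -0.59 on the log2 scale (SE 0.19, unadjusted p 0.0181) and did not pass after adjustment (adjusted p = 0.837, edgeR). The test of whether the tumour effect differed by sex gave -0.68 (SE 0.33, unadjusted p 0.0831, adjusted p = 1). Tumour replicates 3 and 4 were the highest 2 libraries for Cxcl12 and the lowest 2 for Cxcr7.

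Cxcr4, the signalling receptor, was at or near the floor in most libraries. It had 24, 0 and 0 counts in the naive libraries and 0, 2, 1 and 39 counts in the tumour libraries. Of the 7 libraries, 5 had at most 3 counts and 3 had none, and a count of 0 in them allows up to 0.0521 (naive replicate 2), 0.0519 (naive replicate 3) and 0.0497 CPM (tumour replicate 1). Nearly all reads of the gene came from naive replicate 1 (0.412 CPM) and tumour replicate 4 (0.652 CPM). Cxcr4 did not pass the filter on low counts and was not tested with the other genes. In a fit without the filter, added after seeing the data, its log2 difference was 0.35 with an SE of 2.69 (adjusted p = 0.966, edgeR), which leaves its size undetermined at this depth. The difference of the mean levels was 0.0377 CPM and changed sign when naive replicate 2 or 3 or tumour replicate 4 was left out, over a range of -0.121 to 0.175 CPM.

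The 2 libraries with Cxcr4 were set beside the markers of blood cells, which carry this receptor. In tumour replicate 4 the pan-leukocyte gene Ptprc had 378 counts and the T cell gene Cd3e had 96. In naive replicate 1 both were at 0. Other members of the lymphocyte list had counts there. Cd2, Lck and Cd79a had 261, 282 and 169 counts in naive replicate 1 and 194, 571 and 69 counts in tumour replicate 4. The lymphocyte list as a whole summed to 12.2 CPM in naive replicate 1 and 22.8 CPM in tumour replicate 4, against 4.46 to 14.6 CPM in the other 5 libraries. Of its 13 members in the table, 8 had no count in any naive library. The myeloid list summed to 116 CPM in naive replicate 1 and 499 CPM in tumour replicate 4, against 114 to 375 CPM in the other 5 libraries. The part of blood cells in the Cxcr4 counts was not tested.

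Levels of the 3 genes were compared with each other only after division by exon length. Cxcr7 was the highest in naive LECs, with 53.9, 38.8 and 42.6 CPM per kb, and stood above 95.1% to 96.7% of genes with a length. Cxcl12 followed with 2.89, 6.80 and 3.88 CPM per kb, above 68.5% to 77.9% of genes. In tumour LECs Cxcr7 had 48.0, 48.4, 25.8 and 28.9 CPM per kb and Cxcl12 9.69, 11.9, 26.7 and 18.1 CPM per kb. The ranges of Cxcl12 and Cxcr7 were separate in naive skin and overlapped in tumours, where tumour replicate 3 had about equal levels of both. Cxcr4 stayed at or below 0.360 CPM per kb in every library.

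**Figure D4:**
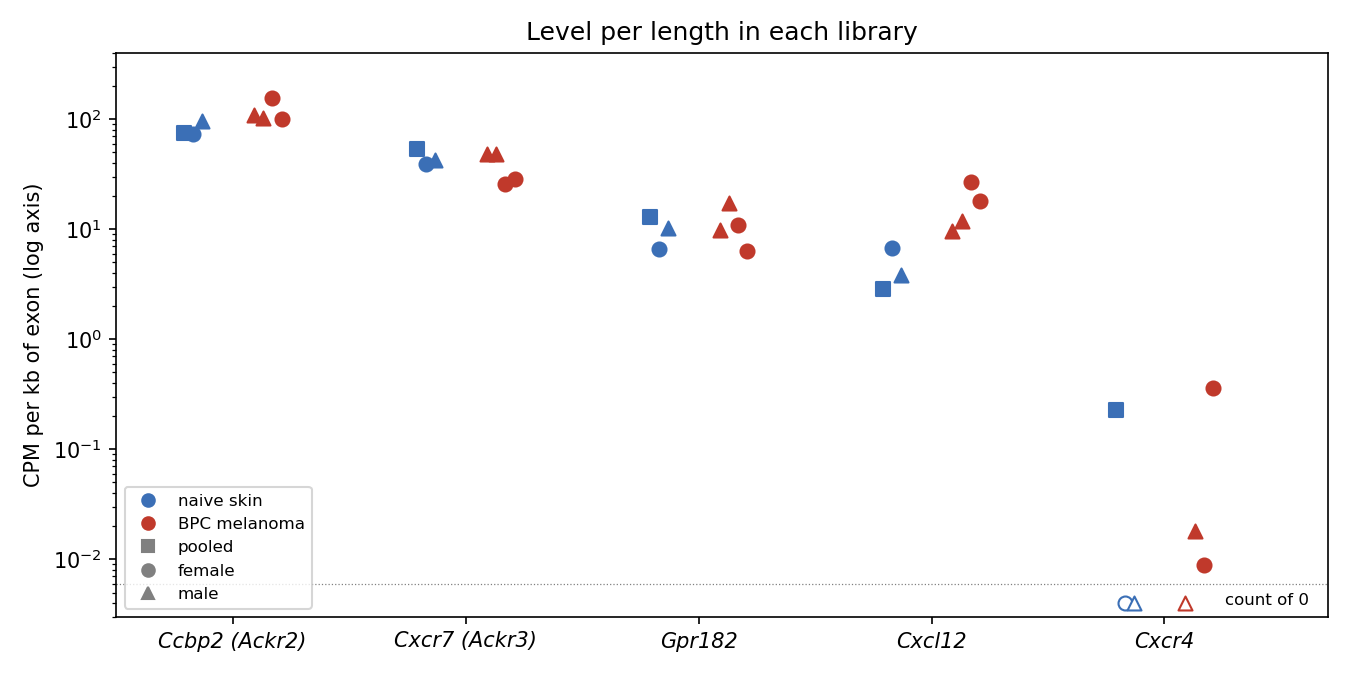
Level per exon length of Ccbp2, Cxcr7, Gpr182, Cxcl12 and Cxcr4 in each library (CPM per kb, logarithmic axis), with open symbols under the dotted line for a count of 0 and shapes for sex. In naive skin Cxcr7 lies at 38.8 to 53.9 and Cxcl12 at 2.89 to 6.80, and in tumours at 25.8 to 48.4 and 9.69 to 26.7.

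The order of Cxcl12 and Cxcr7 in tumours depended on which transcript length was used, and the counts do not say which transcript was present. Over the coding transcripts of Cxcl12, from 5627 to 1878 bases, its mean level would be 6.58 to 19.7 CPM per kb in naive and 24.1 to 72.3 in tumour LECs. With the 3065-base transcript of Cxcr7 its means would be 49.3 and 41.2, and with the other annotated one, of 404 bases, 374 and 313. Under each of these lengths Cxcr7 was above Cxcl12 in naive skin, whereas in tumours the 1878- and 3132-base transcripts of Cxcl12 put it above Cxcr7 unless the 404-base transcript is taken for Cxcr7.

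The ratio of ligand to scavenging receptor within a library does not depend on library size. Cxcl12 had 0.131, 0.428 and 0.222 counts for each count of Cxcr7 in naive replicates 1 to 3, and 0.493, 0.599, 2.53 and 1.54 in tumour replicates 1 to 4. The groups did not overlap. In tumour replicates 3 and 4 Cxcl12 had more counts than Cxcr7, but per kb of exon the ratios there were 1.04 and 0.629. On the log2 scale per exon length the means were -3.40 ± 0.86 (SD, n = 3) and -1.24 ± 1.12 (SD, n = 4), a difference of 2.16. An exact two-sided permutation test gave p = 0.0571, the smallest that 35 arrangements allow, and 0.171 after adjustment over the 3 ratios compared. The ratio of Cxcl12 to Cxcr4 differed by 1.5 (exact permutation p = 0.4, adjusted 0.6) and that of Cxcr4 to Cxcr7 by 0.66 (exact permutation p = 0.743), and both rested on the few counts of Cxcr4.

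The genes with the pattern most like that of Cxcl12 over the 7 libraries were found among 6950 genes by the root mean square difference of centred log2 CPM. They were Htr2b (a serotonin receptor, 0.31), Ttyh1 (0.32), Ggct (gamma-glutamylcyclotransferase, 0.34), Pcdhb9 (a protocadherin, 0.36) and Ppic (cyclophilin C, 0.37), where the median over all genes compared was 1.14. The log2 fold changes of these 5 were 1.46 to 1.96. Ggct, Pcdhb9 and Ppic passed the adjusted threshold and Htr2b and Ttyh1 did not (adjusted p = 0.0527 and 0.0719, edgeR). For Cxcr7 the nearest were Mbd1 (0.11), Serpinb6a (0.12), Hspa4l (0.12), Ankrd40 (0.14) and Fam117a (0.14), against a median of 0.48. All 5 were lower in tumour replicates 3 and 4 than in the other 5 libraries, as Cxcr7 was. The genes near Cxcl12 and near Cxcr7 were chosen by their values in these same libraries. Their shared pattern and like fold changes follow from that choice and are no separate result. Cxcr4 had too few counts for such a comparison.

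The genes around the 3 members were taken from 7 lists by role, with 118 genes in the table and 105 tested. Of these, 3 rose and 5 fell in tumour LECs, together 7.62% against the background of 1.70%. Their median log2 fold change was 0.08 beside 0.04 over all genes tested. The lists were chosen with earlier results of these data known, so these shares do not test the pathway. Of the 5 genes that fell, 4 came from the list of endothelial tip and arterial genes. The calls rested on few libraries, and the count was 0 without naive replicate 1 and 2 without either of the other naive libraries. It was 4 to 6 when a tumour library was left out, with 4 for tumour replicate 4 and 5 for tumour replicates 1 and 3. With lane or sex as a term it was 0, and DESeq2 called 25, where it called 10.9% of all genes.

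Other ligands and partners of the receptors showed no call. Of 7 genes, 5 were tested, 0 passed by edgeR (0 at an unadjusted p under 0.05) and 0 by DESeq2, and the median log2 fold change was 0.50. Hmgb1, which forms a complex with CXCL12, was at 251 ± 33.5 CPM (SD, n = 3) and 232 ± 29.3 CPM (SD, n = 4). Cd74, a receptor chain for the cytokine MIF that can pair with CXCR4, ranged from 11.5 to 102 CPM in naive and from 22.6 to 229 CPM in tumour libraries (log2 fold change 1.64, adjusted p = 0.408). Adm, the adrenomedullin gene, had 18.8, 40.4 and 24.4 CPM in naive and 38.4, 22.0, 39.7 and 51.4 CPM in tumour libraries (adjusted p = 0.619, edgeR). Penk, of the same list, had 0.0515, 6.83 and 1.73 CPM in naive and 7.03, 2.21, 32.8 and 27.0 CPM in tumour libraries. Its log2 fold change was 2.59 (adjusted p = 0.399, edgeR). Adm and Penk are given outside the naming rule. Cxcl11, which encodes the other chemokine bound by ACKR3, had no count in any library.

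The atypical chemokine receptors, which take up chemokines without G protein signals, were tested for all 5 genes listed. By edgeR 0 passed, 2 had an unadjusted p under 0.05 (16.9% of all genes) and DESeq2 called 1 (10.9% of all genes), with a median log2 fold change of 1.10. Ccbp2 (Ackr2), the scavenger of inflammatory CC chemokines, had 234, 230 and 299 CPM in naive and 342, 321, 488 and 316 CPM in tumour libraries. These groups did not overlap, as for 9.57% of all genes in this direction, and the log2 fold change was 0.53 (SE 0.19, adjusted p = 0.201). Gpr182, which also binds CXCL12 in mice, overlapped between groups, at 24.9 to 69.2 CPM over the 7 libraries (adjusted p = 0.875). Per exon length, Ccbp2 stood at means of 81.4 CPM per kb in naive and 117 CPM per kb in tumour LECs, Cxcr7 at 45.1 and 37.7, and Gpr182 at 9.91 and 11.2. Darc (Ackr1), a receptor of venular blood endothelium, had no count in naive skin and 1140, 2, 233 and 623 counts in the tumour libraries. Its mean tumour level was at least 159-fold higher than 3 counts per naive library, or at least 91.1-fold without tumour replicate 1, with an adjusted p of 0.0951.

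Among 22 genes that bind CXCL12 in matrix or cleave it, 19 were tested, 3 rose and 0 fell (0.899% of all genes rose), with a median log2 fold change of 0.30. Cpm encodes carboxypeptidase M, which trims the end of human CXCL12. It had 0.0344, 0.469 and 0.173 CPM in naive and 30.0, 10.6, 10.2 and 13.1 CPM in tumour libraries, a rise of 6.14 on the log2 scale (SE 0.99, adjusted p = 0.0249). Mmp14 and Mmp2, matrix metalloproteinases that cut the active end off CXCL12, rose too. Mmp14 was at 244 ± 12.1 CPM (SD, n = 3) in naive and 520 ± 116 CPM (SD, n = 4) in tumour libraries. The groups did not overlap for Mmp14, as for 9.57% of all genes in this direction. It rose by 1.09 on the log2 scale (SE 0.18, adjusted p = 0.0289, edgeR). Mmp2 had 108, 176 and 201 CPM in naive and 583, 394, 431 and 788 CPM in tumour libraries, and it rose by 1.76 on the log2 scale (SE 0.30, adjusted p = 0.0300). Both metalloproteinases are also made by fibroblasts, whose marker sum was 1820 to 18800 CPM in the same tumour libraries. The part of fibroblast RNA in these differences was not tested. The calls of Cpm and Mmp2 held in 2 of 7 fits with a library left out and that of Mmp14 in 3, with log2 fold changes that stayed above 0. Dpp4, the best known protease of CXCL12, had 0 counts in all libraries but tumour replicate 3 (1 count) and tumour replicate 4 (112 counts).

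**Figure D5:**
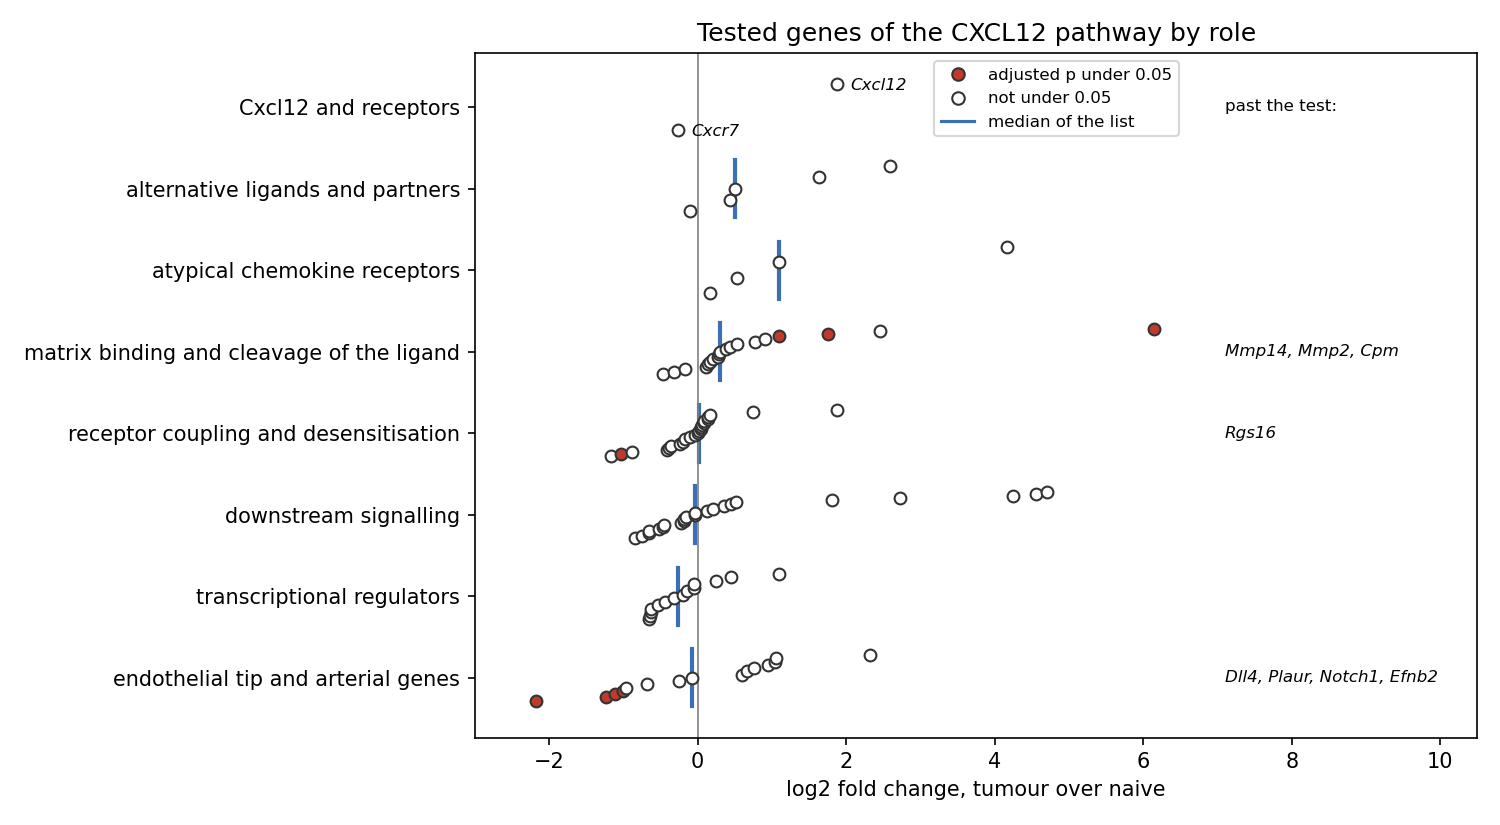
Log2 fold change, tumour over naive, of the tested genes of each role list, with Cxcl12 and Cxcr7 in the top row. Filled points have an adjusted p under 0.05 and are named at the right, and the bar is the median of all tested genes of the list; Darc and Rgs4, which had no naive count, are in the medians but not drawn.

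Receptor coupling and desensitisation held 26 genes, of which 24 were tested, 0 rose and 1 fell (0.803% of all genes fell), with a median log2 fold change of 0.01. The gene that fell was Rgs16, which ends Gi signals. It had 1140, 1290 and 1070 CPM in naive and 583, 528, 714 and 454 CPM in tumour libraries, and it fell by 1.03 on the log2 scale (SE 0.16, adjusted p = 0.0244). Its call held in 2 of 7 fits with a library left out. Gnai2, a Gi subunit and the most abundant gene of the list, was at 1400 ± 107 CPM (SD, n = 3) and 1470 ± 127 CPM (SD, n = 4). In downstream signalling 23 of 25 genes were tested, 0 passed by edgeR (5 at an unadjusted p under 0.05, beside 16.9% of all genes) and DESeq2 called 4 (beside 10.9% of all genes), with a median of -0.04. Stat3, a transcription factor activated by cytokine receptors, had 866 to 1040 CPM in naive and 527 to 817 CPM in tumour libraries without overlap, as did 8.46% of all genes in this direction (log2 fold change -0.52, adjusted p = 0.161). Rac1, a GTPase of cell migration, was at 735 ± 60.0 and 722 ± 88.3 CPM (SD, n = 3 and n = 4).

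All 14 genes listed as transcriptional regulators of the members were tested. By edgeR 0 passed, 5 had an unadjusted p under 0.05 (16.9% of all genes) and DESeq2 called 4 (10.9% of all genes), with a median log2 fold change of -0.26. Ets1, an endothelial transcription factor, was at 481 ± 27.5 CPM (SD, n = 3) and 465 ± 62.9 CPM (SD, n = 4). Rela, the p65 subunit of NF-kB, had 476 to 523 CPM in naive and 261 to 448 CPM in tumour libraries (log2 fold change -0.53, adjusted p = 0.172, edgeR). These groups did not overlap, as for 8.46% of all genes in this direction.

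Endothelial tip and arterial genes, a group in which Cxcr4 is a known marker in blood vessels, had 15 of 19 members tested, and 0 rose and 4 fell by edgeR, where 0.803% of all genes fell. DESeq2 called 4 higher and 5 lower (6.83% and 4.08% of all genes it tested), and the median log2 fold change was -0.07. Dll4, the Notch ligand of tip cells, had 248, 220 and 191 CPM in naive and 56.4, 54.5, 31.9 and 50.7 CPM in tumour libraries, and it fell by 2.18 on the log2 scale (SE 0.21, adjusted p = 0.00696). Notch1, its receptor, had 239, 192 and 304 against 138, 105, 87.6 and 123 CPM (log2 fold change -1.11, SE 0.20, adjusted p = 0.0385). Efnb2, an arterial ephrin that is also needed for the valves of lymphatic vessels in mice, had 349, 320 and 520 against 240, 194, 168 and 184 CPM (log2 fold change -1.01, SE 0.20, adjusted p = 0.0452). Plaur, the urokinase receptor, had 1440, 1570 and 1290 against 641, 631, 651 and 495 CPM (log2 fold change -1.24, SE 0.14, adjusted p = 0.01). All 4 had no overlap between the groups, as had 8.46% of all genes in this direction. The list was split at an unadjusted p under 0.05 by edgeR, with 5 genes higher and 5 lower (16.9% of all genes in either direction). Without overlap, 3 were higher, as were 9.57% of all genes. These were Igfbp3 (log2 fold change 2.32, adjusted p = 0.0795, edgeR), Gja4 (1.05, 0.178) and Angpt2 (0.66, 0.096). The calls of Dll4 and Plaur held in 6 of 7 fits with a library left out, and those of Notch1 and Efnb2 in 1. The receptor genes Kdr and Flt4 did not pass, with Kdr at 1230 ± 250 CPM (SD, n = 3) and 767 ± 205 CPM (SD, n = 4) and Flt4 at 1260 ± 327 and 1200 ± 34.4 CPM. Apln, a tip cell peptide gene, had no count in naive skin and 2, 1, 96 and 188 counts in tumour replicates 1 to 4.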

How the data were processed

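Per the labels' protocols, the Qiagen RNeasy Micro kit gave the RNA and the SMART-Seq v4 kit the libraries, which read full-length cDNA without strand. The authors deposited raw counts per gene and normalized values on a log2 scale. Trimmomatic 0.38 and mm10 were used, per the submitters' processing notes. For the aligner, the counter and the normalization, the tool is not given in the sources used here.

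Of 26608 table entries, 25 symbols that had become dates (0.174% to 0.236% of counts) were left out. Counts were analysed with edgeR 4.0.16 in R 4.3.3 (filterByExpr, which kept 13453 genes, TMM factors of 0.924 to 1.13, robust glmQLFit and glmQLFTest between the 2 groups, Benjamini-Hochberg over all genes tested). The fit was also run on simulated counts, with the spread of each gene capped below the common spread fitted here. That check was easier than these data and does not show how the test performs on them. CPM use TMM-adjusted library sizes. Lengths are unions of exons in GENCODE M21. Ratios within a library used a pseudocount of 1 count and an exact permutation test over libraries. Alternatives were DESeq2 1.42.0, limma 3.58.1 (voom, and the deposited log2 values), other size factors and filters, lane, sex or replicate number as a term, a fit without Ccdc115, and leaving out each library.

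The members and gene lists were chosen with earlier results of these data known. Named genes were the 3 members, from each role list up to 4 past the threshold and the 2 with the highest mean CPM, from each marker list the 2 highest and the 2 with the smallest p, and the 5 most like each member among genes with a mean log2 CPM of at least 4. Other genes named were chosen after their values were seen. Medians of the role lists were the same with genes at 0 in naive skin set to the floor of 3 counts.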

Additional observations from a re-analysis of the deposited data

Results flagged for a closer look

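The 3 members and the genes named from the lists, 49 in all, were each checked for a tumour library whose gap to its nearest neighbour, as a share of the range of the 4 tumour libraries, was above Dixon's 95% limit, which chance passes in about 1 in 20 groups. In 7 genes a library stood apart in this way. Cxcr4 was at 0.652 CPM in tumour replicate 4 against at most 0.0328 CPM in the others. Ccbp2 was at 488 CPM in tumour replicate 3, with the others at 316 to 342 CPM. Cpm was at 30.0 CPM in tumour replicate 1, with the others at 10.2 to 13.1 CPM. Hmgb1 was at 275 CPM in tumour replicate 2 and Kdr at 1070 CPM in tumour replicate 1, both above the other tumour libraries. Plaur was at 495 CPM in tumour replicate 4, below the others. Cspg4, a proteoglycan of mural cells and of melanoma, was at 44.4 CPM in tumour replicate 4, above the others.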

How the results depend on the processing

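The adjusted p of Cxcl12 was above 0.05 in the edgeR test and under it with DESeq2 (log2 fold change 1.88), a filter of 5 CPM (1.89) and limma on the deposited log2 values (1.67); it was 1.55 to 2.29 with a library left out. Cxcr7 passed in none of 18 settings and was -0.40 to -0.11 with a library left out. All genes called numbered 229 (121 higher, 108 lower), against 1516 with DESeq2, 359 with a filter of 5 CPM, 355 with the deposited log2 values, 12 with sex as a term, 0 with lane as a term (1169 at an unadjusted p under 0.05) and 7 to 171 with a library left out. Upper-quartile factors gave 156 higher and 92 lower, and limma-voom 101 and 173. Genes of the role lists called numbered 8, against 25 with DESeq2, 0 with lane or sex as a term and 0 to 6 with a library left out. The replicate numbers did not pair the libraries (correlations of deviations of same-numbered libraries -0.037 to -0.006, and 0 of 3 naive libraries correlated best with their own number). With the replicate block, Cxcl12 was at 1.77 (adjusted p = 0.233), Cxcr7 at -0.19 (0.817), all genes called numbered 3 and those of the role lists 0. The Cxcl12 to Cxcr4 ratio reversed to -0.32 without naive replicate 1 (range -0.32 to 2.61), and Cxcr4 to Cxcr7 to -0.01, -0.08 and -0.58 without naive replicate 2, naive replicate 3 and tumour replicate 4 (range -0.58 to 2.06). The Cxcl12 to Cxcr7 ratio stayed at 1.73 to 2.60. The cause was not tested in these cases. Of the 3 members, depth limits Cxcr4, with 24 counts over the naive and 42 over the tumour libraries.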
